A study of Mus musculus with 10 samples.

Results

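Pdgfrb, Csf1r, Cdx1, Zmynd8, Gtf2a1, Pkp2, Ggcx, Tbc1d8 and Ackr3 are 9 of the 21631 protein-coding mouse genes considered, and each lies in or near a chromatin region where SOX15 was called and SOX2 was mostly not. The 9 genes were chosen from the peak lists described here, so the values below are a description of these libraries and carry no test. For each gene, all peaks whose summit lay inside the gene or within 70 kb of it were taken. SOX15 binding had been mapped by chromatin immunoprecipitation and sequencing (ChIP-seq) in 3 libraries from mouse embryonic stem cells with an HA tag knocked in at Sox15, and SOX2 binding in 2 libraries from cells with the tag at Sox2. Both kinds of cell grew in 2i/LIF medium, which holds them in the naive pluripotent state, and were fixed with 1% formaldehyde for 5 min; input libraries (3 for SOX15, 2 for SOX2) were not analysed here. No label says if replicates came from separate cultures or if each tagged line was 1 clone. Peak lists hold no expression values, so the labelled cell type was not checked against markers.

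SOX15 and SOX2 are transcription factors with an HMG box, a domain that enters the minor groove of DNA and bends it. SOX2 is known in embryonic stem cells as the partner of OCT4 at enhancers of the pluripotency genes. SOX15 belongs to another subgroup of the family and can recognise similar short sequences. The 9 genes have no common pathway. They include receptors at the cell surface (Pdgfrb, Csf1r, Ackr3), regulators of transcription (Cdx1, Zmynd8, Gtf2a1), a desmosome protein (Pkp2), an enzyme (Ggcx) and a protein of vesicle traffic (Tbc1d8).

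The lists of SOX15 replicates 1, 2 and 3 held 217, 672 and 437 peaks, against 2676 and 4817 in SOX2 replicates 1 and 2. The weakest peak had a −log10 q-value of 2.76, 2.03 and 1.31 in SOX15 replicates 1, 2 and 3, against 2.1 and 2.2 in SOX2 replicates 1 and 2, so the lists do not stop at the same strength. Read depth is unknown, and binding under the caller's threshold would leave no peak. All folds are the authors' enrichment of a peak over its background. Folds printed side by side from different lists are not comparable in size, and a percentile, where given, ranks a peak within its own list.

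Among the 5 genes with a promoter in the RefSeq table (Zmynd8, Gtf2a1, Ggcx, Tbc1d8 and Ackr3), SOX15 peaks reached a listed promoter at Gtf2a1. Promoters of Pdgfrb, Csf1r, Cdx1 and Pkp2 were not analysed here. The RefSeq table (GRCm38.p6, the assembly behind mm10) gives Gtf2a1 a pair of starts 838 bp apart on the minus strand, and the SOX15 summits of replicates 2 and 3 lay between them. Both promoters are shown as the 250 bases before and 50 bases after the start, 5′ to 3′ on the gene's strand. In the inner promoter (chr12:91589600-91589899) capitals mark the 111 bases that lie in the SOX15 replicate 2 peak, and in the outer one (chr12:91590438-91590737) they mark the letters ACAAAG of a SOX core motif.
Gtf2a1 inner promoter: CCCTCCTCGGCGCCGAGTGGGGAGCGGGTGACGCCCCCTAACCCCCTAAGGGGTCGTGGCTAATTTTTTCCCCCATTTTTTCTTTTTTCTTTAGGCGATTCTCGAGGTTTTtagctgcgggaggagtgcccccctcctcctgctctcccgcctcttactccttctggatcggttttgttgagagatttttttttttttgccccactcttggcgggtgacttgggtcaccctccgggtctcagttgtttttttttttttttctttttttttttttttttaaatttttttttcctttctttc
Gtf2a1 outer promoter: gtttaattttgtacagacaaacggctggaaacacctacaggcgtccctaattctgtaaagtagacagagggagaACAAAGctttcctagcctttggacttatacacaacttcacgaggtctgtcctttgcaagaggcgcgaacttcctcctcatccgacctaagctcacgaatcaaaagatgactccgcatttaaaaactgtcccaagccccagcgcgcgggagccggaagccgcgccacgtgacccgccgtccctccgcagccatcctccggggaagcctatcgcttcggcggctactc

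The inner promoter was rich in T, at 43.7% of its bases with a longest run of 17, and the outer one held 20.3% T with a longest run of 4. The letters searched on both strands were the SOX cores ACAAAG and ACAATG, the octamer ATTTGCAT that OCT4 can bind, the CCAAT box by its letters CCAAT, and the TATA box as TATAAA. None of these letters was in the inner promoter, which holds 111 bases of the SOX15 replicate 2 peak. The rest of that 255 bp peak, with its summit, lies outside both printed promoters and was not searched. The outer promoter held ACAAAG once, 176 bases before its start, and none of the others. Among all 32851 promoters in the table, 18.7% held ACAAAG, 12.6% ACAATG, 1.74% the octamer, 37.4% CCAAT and 13.6% TATAAA. A match describes the letters and is not a measured site. No SOX15 or SOX2 peak overlapped the listed promoters of Zmynd8, Ggcx, Tbc1d8 or Ackr3. The listed Zmynd8 starts, from 165858173 to 165884838, all lie inside the gene, and none is at its 5′ edge (165898981). Peaks near that edge are given below.

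The windows held 35 distinct SOX15 peaks and 11 distinct SOX2 peaks. SOX15 replicates 1, 2 and 3 had 8, 13 and 14 of them, which is 3.69%, 1.93% and 3.2% of their lists. SOX2 replicates 1 and 2 had 5 and 6, or 0.187% and 0.125%. SOX15 peaks outnumbered SOX2 peaks at 7 genes and equalled them at Gtf2a1 and Pkp2, as the choice of genes favours. Pdgfrb, Csf1r and Cdx1 are among the 7 genes through the same SOX15 peaks. Of the SOX15 peaks 28 had their summit inside one of the genes, as had 7 of the SOX2 peaks. The share of all peaks with a summit inside a coding gene was not counted.

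All 9 genes had a peak of at least 1 SOX15 library, against 10.1% of the 21631 genes. All 9 also had a SOX15 region called in at least 2 SOX15 libraries, named reproducible here, against 2.75% of genes. A reproducible SOX15 region free of any SOX2 peak lay at all 9, against 1.37% of genes. These counts follow from how the genes were chosen. Pdgfrb, Csf1r and Cdx1 share 1 SOX15 region, which each count of genes here takes 3 times. SOX15 replicates 2 and 3 had a peak at each of the 9 (background 7.16% and 5.29%), and replicate 1 at 5 (background 2.82%), namely Pdgfrb, Csf1r, Cdx1, Zmynd8 and Tbc1d8. Without SOX15 replicate 2, or without replicate 3, reproducible regions were left at 5 genes, the same 5 in either case. A region called in each of the 3 SOX15 libraries lay at those 5 genes, against 1.87% of all genes. These were 3 distinct regions.

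The genes were not free of SOX2 over the whole window. A peak of at least 1 SOX2 library lay in the windows of 6 genes (Pdgfrb, Cdx1, Zmynd8, Gtf2a1, Pkp2 and Tbc1d8), against 31.6% of all genes. Pdgfrb and Cdx1 are counted through the same SOX2 replicate 2 peak. A SOX2 region called in both libraries lay at 4 of them (Zmynd8, Gtf2a1, Pkp2 and Tbc1d8), against 17.5%. Csf1r, Ggcx and Ackr3 had a reproducible SOX15 region and no SOX2 peak in the window, against 0.596% of all genes. The SOX15 part of this count follows from the choice of genes. Of the 595 genes with a reproducible SOX15 region in the window, 129 had no SOX2 peak there. SOX2 replicate 1 had peaks at 4 genes (background 19.2%) and SOX2 replicate 2 at 6 (background 30.2%).

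**Figure D1:**
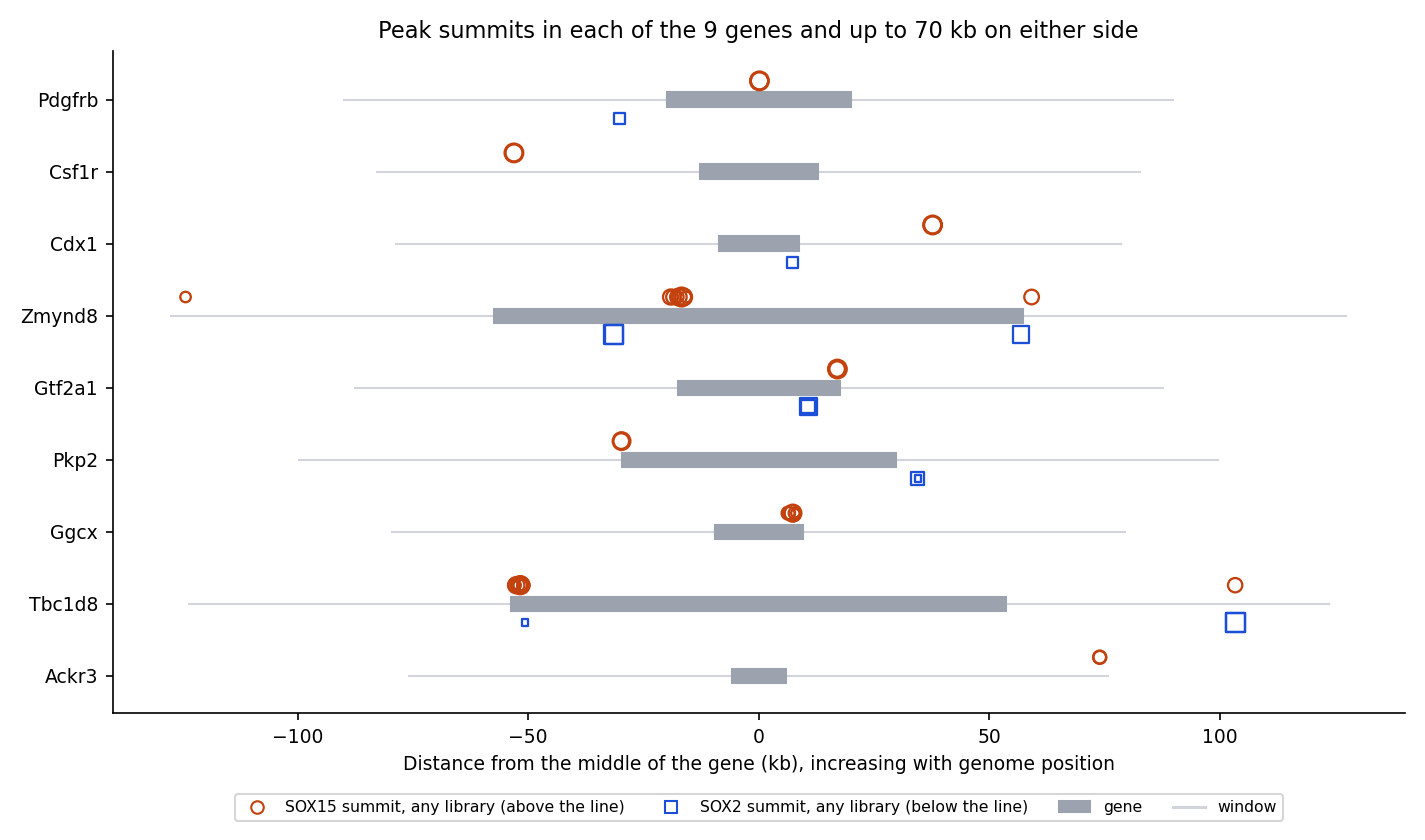
Summits of all SOX15 peaks (circles, above the line) and SOX2 peaks (squares, below the line) in each gene (grey box) and 70 kb to either side (thin line), by distance in kb from the middle of the gene; larger symbols have a higher fold percentile in their own list, and overlapping symbols come from different libraries or neighbouring peaks. SOX2 squares are missing at Csf1r, Ggcx and Ackr3, and at Tbc1d8 a SOX15 circle sits over a pair of SOX2 squares 49.7 to 49.8 kb outside the gene.

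The 16 distinct SOX15 regions in the windows comprised 12 reproducible ones and 4 called in 1 library. Of the 12, 11 had no SOX2 peak, and these belong to the 68 such regions among the 200 reproducible SOX15 regions of the series. Of the 11 regions, 3 were called in each SOX15 library, 7 in replicates 2 and 3 only, and 1 in replicates 1 and 2 only. Among all 68, 19 were called in each SOX15 library and 24 in replicates 2 and 3 only. A further 16 were called in replicates 1 and 2 only, and 9 in replicates 1 and 3 only. In 9 of the 11 every summit lay inside one of the genes, and the same share over all 68 was not counted. The 68 were ranked by the mean percentile of fold over the calling libraries. A library without a call does not enter the mean, and the lists differ in length. Ranks of regions called in different sets of libraries are therefore only a rough order. The best region at Pdgfrb was number 3, Zmynd8 number 5, Gtf2a1 number 7, Pkp2 number 9, Ggcx number 10, Tbc1d8 number 11 and Ackr3 number 48. The other regions without a SOX2 peak ranked low, at numbers 51 and 64 for Ggcx and 46 and 65 for Tbc1d8.

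**Figure D2:**
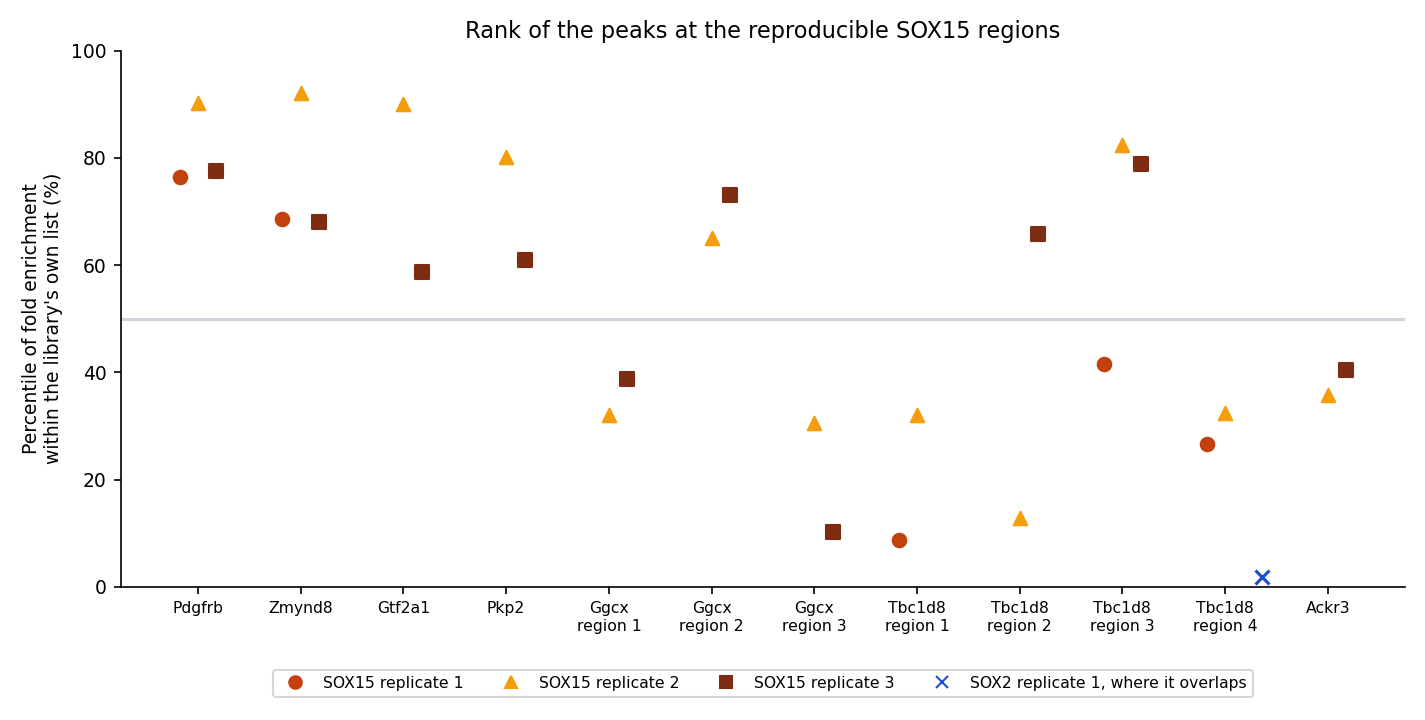
Percentile of the authors' fold within each library's own list (vertical axis, %) for the strongest peak of each SOX15 library at the 12 reproducible SOX15 regions, with regions of 1 locus numbered by genome position; the cross is the SOX2 replicate 1 peak at the only one of these regions that has a SOX2 peak. Pdgfrb and Zmynd8 lie above the middle line in each of the 3 SOX15 libraries, while Ackr3 lies at 35.7% and 40.5% and the outer regions of Ggcx are below 40%.

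Pdgfrb, Csf1r and Cdx1 shared 1 SOX15 region, so they are 1 observation and not 3. Pdgfrb (chromosome 18, 61045127 to 61085067) encodes a receptor tyrosine kinase for platelet-derived growth factor on mesenchymal cells. Csf1r (61105572 to 61131139) encodes the related receptor for CSF1 and IL-34 of the macrophage lineage and lies 20.5 kb beyond it. Cdx1 (61018862 to 61036199), a homeobox factor of posterior patterning and the intestine, lies 8.93 kb to the other side of Pdgfrb.

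The shared region (chromosome 18, 61064982 to 61065434) was 453 bp wide and lay at the middle of Pdgfrb, 50.4% along its length. Its fold was 15, 10.8 and 9.04 in SOX15 replicates 1, 2 and 3, at percentiles 76.5, 90.2 and 77.6 of these lists. The −log10 q-values were 34.7, 26.3 and 12.3. The 3 summits fell within 19 bp of each other, so the libraries placed the site at nearly the same base. It lay 40.3 kb from Csf1r and 29.1 kb from Cdx1.

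Neither SOX2 library had a peak on this region. SOX2 replicate 2 had a weak peak inside Cdx1, 1.25 kb from the gene's end next to Pdgfrb, with a fold of 6.36 at percentile 23.4. That summit was 30.3 kb from the SOX15 region and 70.6 kb from Csf1r, just outside its window. The nearest peak of SOX2 replicate 1 was 1200.7 kb away. The nearest noncoding gene in the table was Mir6983, a microRNA gene 52.2 kb off, and no strand is used for these 3 genes because the tables give none.

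Zmynd8 (chromosome 2, 165784152 to 165898981, minus strand) encodes a chromatin reader of acetylated and methylated histones, and it carried the widest region. The region (165822861 to 165826620) spanned 3760 bp and ranked number 1 in width among the 200 reproducible SOX15 regions, whose median was 699.5 bp. In SOX15 replicate 2 it was a single peak of 3360 bp, the widest of that list. SOX15 replicate 1 split it into 3 peaks, the largest 2239 bp wide and number 2 of its list, and SOX15 replicate 3 also split it into 3, of 838, 633 and 221 bp. Single peaks of SOX15 replicates 1 and 2 were thus already wide, while SOX15 replicate 3 showed shorter pieces.

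The strongest peak in the Zmynd8 region had a fold of 11.6, 13.7 and 7.61 in SOX15 replicates 1, 2 and 3, at percentiles 68.7, 92.1 and 68.0. Summits were spread over 2728 bp, between 63.7% and 66.1% of the way from the gene's 5′ edge to its 3′ end. No SOX2 peak overlapped the region. Both SOX2 libraries had a strong peak 13.0 kb further towards the 3′ end, with folds of 15.4 and 17.7 at percentiles 86.7 and 90.1.

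Other peaks near Zmynd8 were called in 1 library each. SOX15 replicate 2 had one next to the wide region with a fold of 5.5. SOX15 replicate 1 had one 1.79 kb outside the 5′ edge with a fold of 8.43, and SOX2 replicate 2 had one 0.536 kb inside that edge with a fold of 10.2, so these summits were 2.33 kb apart. SOX15 replicate 3 had a peak 66.9 kb beyond the other end of the gene, inside Eya2, with a fold of 5.12. The noncoding genes nearest to these sites were the long noncoding RNA genes Gm11465 (56.1 kb from the strongest replicate 1 summit), 1810021M19Rik (9.7 kb from the 5′ peak of SOX15 replicate 1) and Gm29993 (10.4 kb from the peak in Eya2).

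Gtf2a1 (chromosome 12, 91555262 to 91590487, minus strand) encodes the precursor of the large subunits of TFIIA, a general factor that helps TBP settle on promoters. Its SOX15 region (91589789 to 91590043) was called in replicates 2 and 3, with folds of 10.7 and 6.76 at percentiles 90.0 and 58.8; SOX15 replicate 1 had no peak there. The summits lay 0.538 and 0.595 kb downstream of the outer start and 300 and 243 bp upstream of the inner start. The peaks covered 111 bases (replicate 2) and 75 bases (replicate 3) of the inner promoter printed above, and none of the outer one.

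SOX2 had its own site in Gtf2a1, apart from the SOX15 site. Both SOX2 libraries had a peak 6.24 and 6.27 kb further into the gene, with folds of 10.3 and 7.74 at percentiles 68.2 and 43.9. The noncoding gene nearest to the SOX15 region was Gm25776, a small nucleolar RNA gene inside Gtf2a1, 16.3 to 16.4 kb from the summits.

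Pkp2 (chromosome 16, 16213345 to 16272712) encodes plakophilin 2, an armadillo-repeat protein of desmosomes. Its SOX15 region (16213140 to 16213742) covered the lower end of the gene and was called in replicates 2 and 3, with folds of 7.63 and 6.97 at percentiles 80.2 and 60.9. The summits lay 67 and 133 bp outside the gene, and SOX15 replicate 1 had no peak. The strand of Pkp2 was not available here, so whether this end is the gene's start was not determined. Both SOX2 libraries had a peak on the opposite side, 4.81 and 4.84 kb beyond the gene's other end, with folds of 7.42 and 3.99 at percentiles 36.6 and 1.2. The SOX2 summits were 64.2 and 64.3 kb from the SOX15 region and 1.52 and 1.54 kb from the transcribed pseudogene Gm5481. The noncoding gene nearest to the SOX15 summits was the pseudogene D16Ertd727e, 14.5 kb away.

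Ggcx and Tbc1d8 had rows of separate SOX15 regions in the last few kb of the gene, and in both the gene runs at its 3′ end into a neighbour on the opposite strand. Ggcx (chromosome 6, 72414279 to 72433359, plus strand) encodes the vitamin K-dependent gamma-glutamyl carboxylase. Its last 564 bp overlap the 3′ end of Mat2a (72432796 to 72439556), the gene of a methionine adenosyltransferase subunit. Tbc1d8 (chromosome 1, 39371495 to 39478778, minus strand) encodes a TBC-domain protein, a family that acts on Rab GTPases. Its last 417 bp overlap the 3′ end of Rpl31 (39367851 to 39371911), a ribosomal protein gene. Mat2a and Rpl31 are named after their position was seen.

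At Ggcx, SOX15 replicates 2 and 3 each had 3 peaks, and SOX15 replicate 1 and both SOX2 libraries had none. The first region (72430092 to 72430464) had folds of 4.54 and 5.92 in replicates 2 and 3, the second (72430681 to 72431390) 6.12 and 8.26, and the third (72431458 to 72431814) 4.51 and 4.59. The second was the strongest in both libraries, at percentiles 65.0 and 73.0, and the third was as low as percentile 10.3 in replicate 3. The 6 summits lay between 83.5% and 91.6% of the way along Ggcx, 1.03 to 2.59 kb past the 3′ end of Mat2a. The nearest SOX2 summits were 355.8 and 191.5 kb from the third region in SOX2 replicates 1 and 2. The nearest noncoding gene was Particl, a long noncoding RNA gene 6.92 kb from the closest SOX15 summit.

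At Tbc1d8, 4 reproducible SOX15 regions followed each other over the last 3 kb of the gene. The third (39373251 to 39373775) was called in each SOX15 library, with folds of 7.36, 8.0 and 9.28 in replicates 1, 2 and 3 at percentiles 41.5, 82.4 and 78.9. The first (39371947 to 39372239) had folds of 4.87 and 4.54 in replicates 1 and 2, at percentiles 8.76 and 32.0. The second (39372431 to 39372734) had 3.58 and 7.36 in replicates 2 and 3, at percentiles 12.9 and 65.9. The fourth (39373951 to 39374393) had 6.1 and 4.55 in replicates 1 and 2, at percentiles 26.7 and 32.4. The 9 summits lay 0.158 to 2.18 kb past the 3′ end of Rpl31.

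The fourth Tbc1d8 region goes against the name of the set. A SOX2 replicate 1 peak (39374237 to 39374509) overlapped it, with a fold of 4.44 at percentile 1.79, among the weakest of that list. SOX2 replicate 2 had no peak there. The overlap is gone without SOX2 replicate 1, and without SOX15 replicate 1 or replicate 2 the fourth region is no longer reproducible, so in each of these cases no gene has a reproducible SOX15 region with a SOX2 peak.

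Outside the other end of Tbc1d8 the factors did meet. SOX2 folds there were 25.5 and 25.7, at percentiles 96.9 and 96.4, with a SOX15 replicate 3 peak of fold 6.29 whose summit was 16 and 31 bp from the SOX2 summits. This site lies 49.7 kb beyond the gene's 5′ end and 7.2 kb from Cnot11. SOX15 replicates 1 and 2 had no peak on it. The nearest noncoding gene was Gm24826, a small nucleolar RNA gene 8.76 kb away, while the regions at the 3′ end of Tbc1d8 had none closer than the pseudogene Gm3617 at 56.6 kb.

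Ackr3 (chromosome 1, 90203980 to 90215724, plus strand) encodes an atypical receptor that binds the chemokine CXCL12 and removes it. Its SOX15 region (90283728 to 90284060) lay 68.1 kb beyond the 3′ end of the gene, just within 70 kb, and inside 2700003A03Rik (90272872 to 90290770), a long noncoding RNA gene. Ackr3 was the nearest protein-coding gene. The fold was 4.75 and 5.96 in SOX15 replicates 2 and 3, at percentiles 35.7 and 40.5, and the summits were 11 bp apart. SOX15 replicate 1 had no peak. The nearest SOX2 summits were 169 kb from the region in either library, at percentiles 70.4 and 85.2 in SOX2 replicates 1 and 2. This SOX2 replicate 1 summit, with a fold of 10.7, lay 89.1 kb from the gene.

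**Figure D3:**
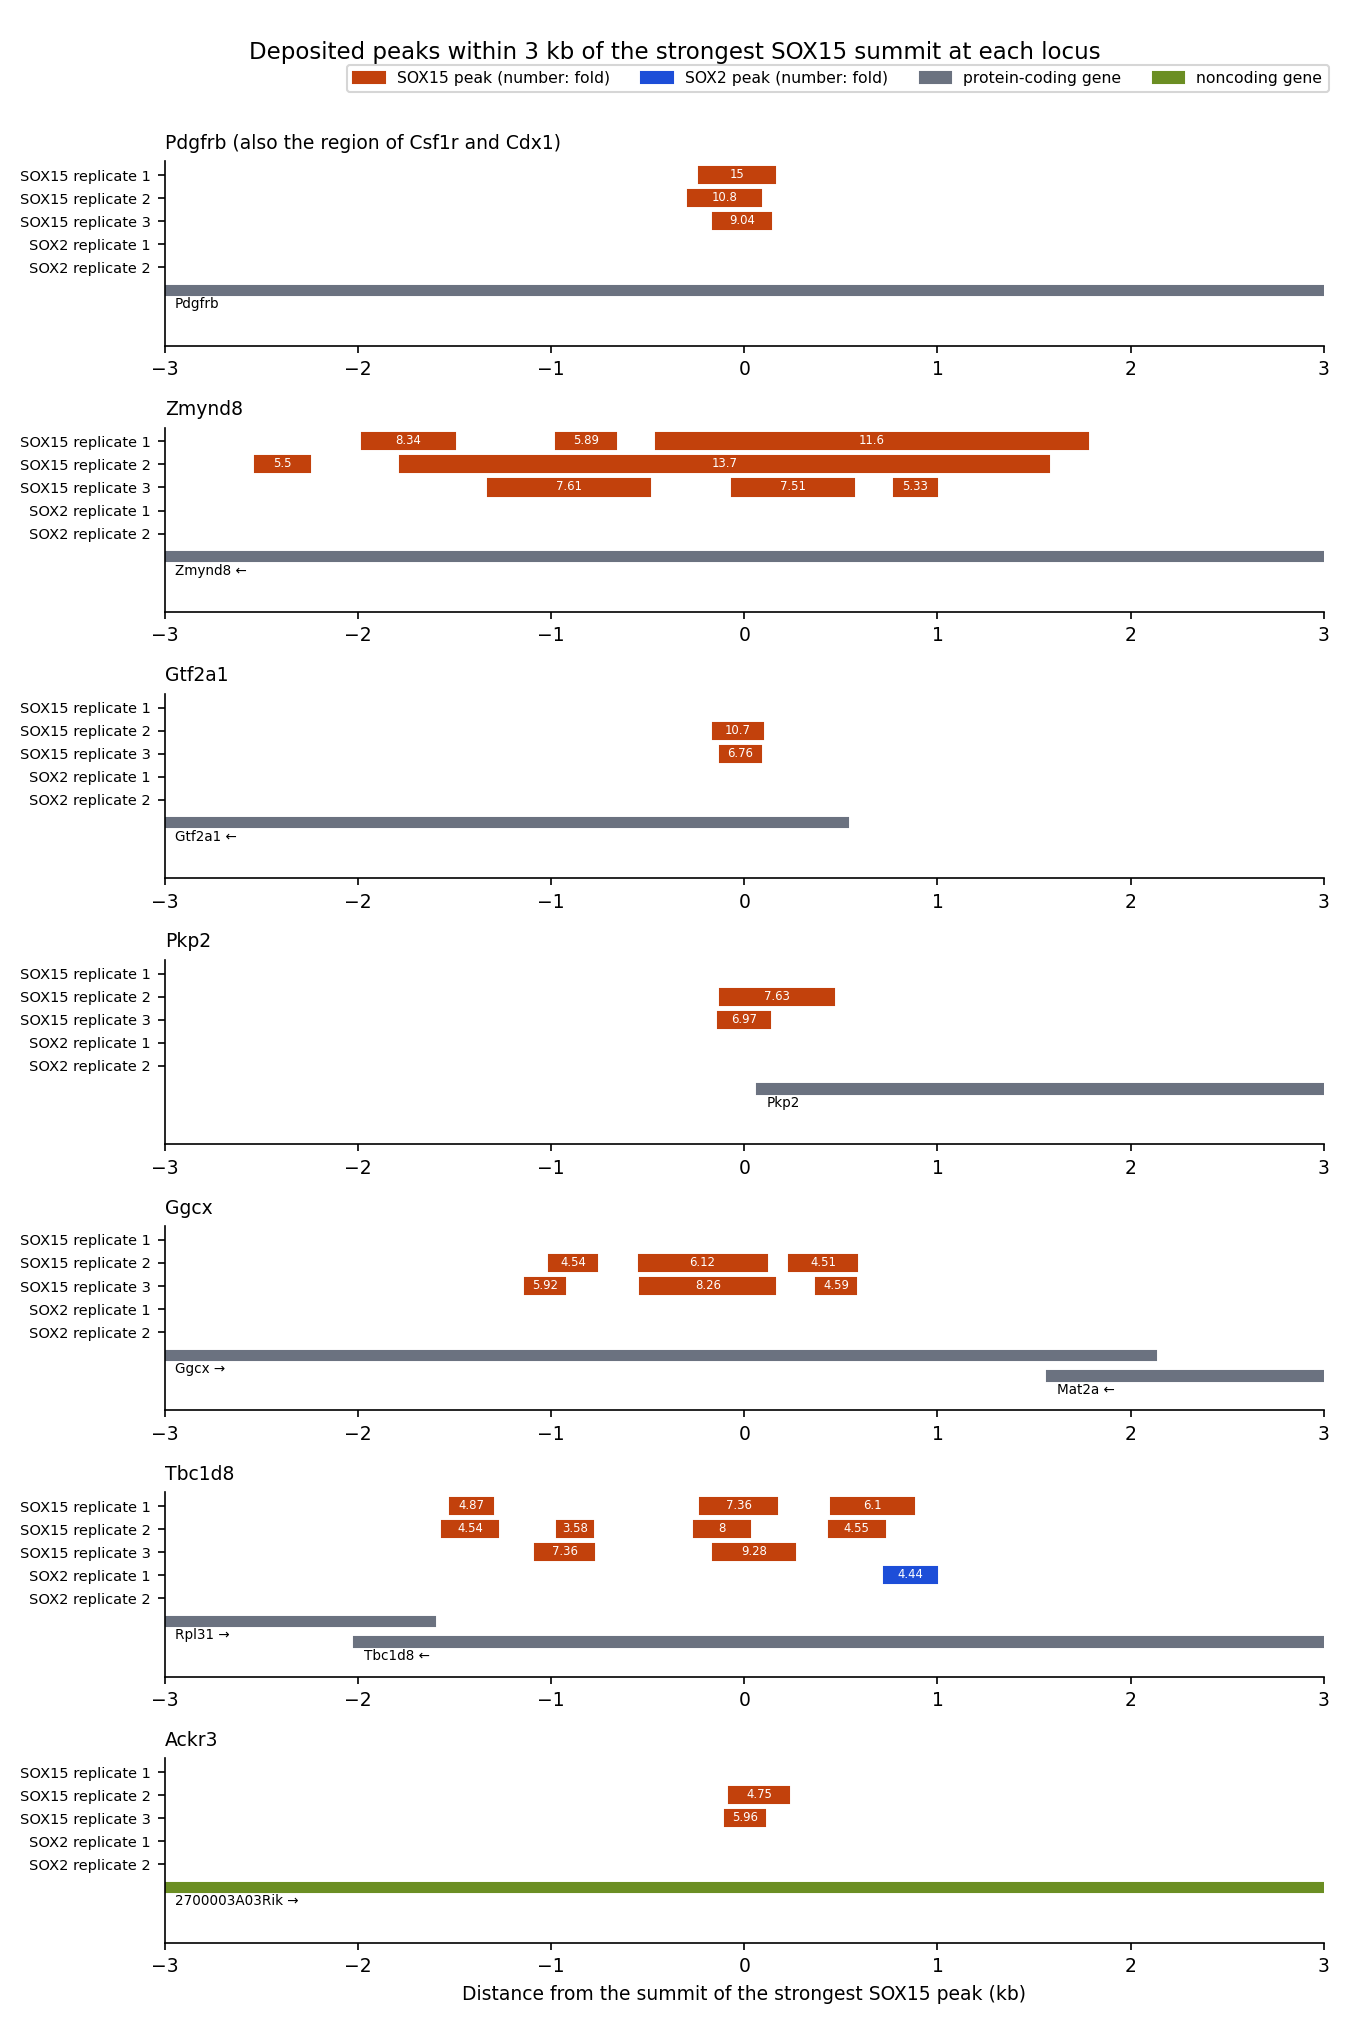
Peaks of the 3 SOX15 libraries and the 2 SOX2 libraries (rows, with the authors' fold in each box) within 3 kb of the strongest SOX15 summit at 7 loci, by distance in kb; grey bars are protein-coding genes, the green bar is a noncoding gene, and arrows give the direction of transcription where the tables have it. SOX15 boxes of different libraries overlap at each locus, they run in rows at Zmynd8, Ggcx and Tbc1d8, the libraries divide the Zmynd8 region differently (summits over 2728 bp), and a single SOX2 box (fold 4.44, replicate 1) touches them at Tbc1d8.

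Noncoding genes close to the peaks of the windows were counted as a description. The same share over all peaks of the lists was not counted. The 2 SOX15 peaks inside 2700003A03Rik were the only peaks of the windows with a noncoding gene within 1 kb of the summit. No SOX15 and no SOX2 peak of the windows had a small nuclear, small nucleolar or ribosomal RNA gene within 1 kb. The gene table gives boundaries and no exons, so exon or intron is not stated.

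Regions like these in library pattern and rank were looked for among the 68 without SOX2, leaving out those of the 9 genes themselves. For the pattern of 3 SOX15 libraries (16 other regions), the nearest in mean percentile to Pdgfrb (81.4) was the region by H2bc18 at 84.4, to Zmynd8 (76.2) that at H1f2 at 75.2, and to Tbc1d8 (67.6) that by H3c15 at 72.7. These are histone genes. For the pattern of replicates 2 and 3 (17 other regions), the region whose nearest gene is C1rl, at 67.0, was the closest of these to Gtf2a1 (74.4), Pkp2 (70.5) and Ggcx (69.0). C1rl lies 13224 bp from that region. The one whose nearest gene is Slc25a28, 20882 bp away, was closest to Ackr3 (38.1), at 39.3. Likeness here rests on 2 or 3 libraries per region and is a description.

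Relatives of the 9 genes by family or pathway were counted in the same way. Of 51 genes in 8 lists, 49 were among the genes considered, and 3 of these (6.12%) had a reproducible SOX15 region in their window, against 2.75% of all genes. A peak of any SOX15 library lay at 6 of the 49, against 10.1% of all genes, and a SOX2 peak at 28 (57.1%), against 31.6%. The 3 were Pdgfb, the gene of a ligand of the Pdgfrb product, Chd4, an ATPase of the NuRD complex, and Polr2a, the largest subunit of RNA polymerase II. The SOX15 regions counted for Pdgfb and Chd4 lay outside these genes, at least 51.3 and 30.7 kb away. Other genes may lie closer to these regions and are not named here. Among class III receptor tyrosine kinases and their ligands, 8 of 10 had a SOX2 peak and 1 a reproducible SOX15 region. Among ZMYND8 partners and relatives these numbers were 4 and 1 of 8, and among general initiation factors 6 and 1 of 10. Pdgfra, the sister gene of Pdgfrb, had no SOX15 peak and SOX2 folds of 31.2 and 35.4 at a site 66.0 kb away.

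At Polr2a, SOX15 folds were 8.35, 17.6 and 9.37 in replicates 1, 2 and 3 at a site inside the gene, where SOX2 folds were 22.8 and 8.94 in replicates 1 and 2. The highest SOX15 folds near Pdgfb were 10.7, 5.44 and 8.28 in replicates 1, 2 and 3, at sites 51.3 to 51.4 kb from the gene, where SOX2 replicate 1 had a fold of 5.08 and SOX2 replicate 2 had no peak. Near Chd4 they were 6.74, 13.1 and 10.3, at sites 30.7 to 31.0 kb away, beside a SOX2 replicate 1 fold of 7.48, and SOX2 replicate 2 had no peak in that window. Of the 2 Cdx relatives, Cdx4 had SOX2 folds of 19.1 and 21.2 at a site 9.44 to 9.48 kb away and no SOX15 peak, and Cdx2 had no peak of either factor. None of the 6 chemokine genes, 3 vitamin K cycle genes or 3 relatives of Tbc1d8 had a SOX15 peak, against 10.1% of all genes. A SOX2 peak lay at 4, 1 and 0 of them, against 31.6% of all genes. Of the 7 desmosome genes 4 had a SOX2 peak. Jup had 1 SOX15 peak, in replicate 3 (fold 5.82), and Dsp had SOX2 peaks at 3 sites in both SOX2 libraries.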

How the data were processed

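The submitters' processing notes name Bowtie2, MACS2 and deepTools with no version, and the mouse build mm10. Peaks were called per sample, since each deposited list belongs to 1 library; the labels do not say whether inputs served as control. The columns deposited by the authors hold a fold (a linear ratio over background), −log10 p- and q-values, a summit offset and a score. In all lists the score was the −log10 q-value times 10, cut to a whole number. SOX15 peaks that overlapped by 1 bp were merged, and a region was called reproducible in at least 2 of 3 libraries. Genes, positions and promoters came from RefSeq (GRCm38.p6); strands were taken from the promoter table. The genes and the lists of relatives were chosen with earlier results of these data known. Named genes are the 9, the coding and noncoding genes nearest to their peaks, relatives with a reproducible SOX15 region, and genes by the regions closest in library pattern; Mat2a, Rpl31, Pdgfra, Cdx2, Cdx4, Jup, Dsp and noncoding genes over 1 kb from a summit fall outside that rule and were named after their values were seen. No test was run: the genes were chosen on these values, and 2 against 3 libraries cannot give an exact p below 0.1. The window and merging code was checked on simulated peaks. Sequence under the peaks away from listed promoters was not used here. Python 3.11.15, numpy 2.4.6, pandas 2.3.3 and matplotlib 3.10.9 were used.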

Additional observations from a re-analysis of the deposited data

How the results depend on the processing

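The count of genes with a reproducible SOX15 region was 9, and 6, 8 and 9 with windows of 10, 50 and 100 kb; it was 9 and 8 with −log10 q of at least 3 and 5, and 5 when each of the 3 SOX15 libraries was required. Leaving out 1 library at a time gave 5 to 9 such genes, 4 to 6 genes with a SOX2 peak, 21 to 35 SOX15 peaks and 5 to 11 SOX2 peaks in the windows, and 0 to 1 genes whose reproducible SOX15 region overlaps a SOX2 peak. Genes with a SOX2 peak numbered 6, and 5, 6 and 8 with windows of 10, 50 and 100 kb, where Csf1r and Ackr3 join. Fewer libraries leave fewer peaks by construction. Pdgfrb, Csf1r and Cdx1 enter the counts of genes with 1 shared SOX15 region. No paired analysis was possible because the results come from no test. Depth is unknown, so a missing peak is no measure of absent binding.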

Other observations

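The overlap of 3′ ends at Ggcx and Tbc1d8 was noticed in these data and then counted, with no test. Of the 68 reproducible SOX15 regions without a SOX2 peak, 9 (13.2%) had the summit of their strongest peak within 3 kb of overlapping 3′ ends of a pair of protein-coding genes, and 6 of the 9 are the regions at Ggcx and Tbc1d8 described above. The count was 2 of 132 (1.52%) for SOX15 regions with a SOX2 peak, of which 1 is the fourth Tbc1d8 region, and 5 of 2369 (0.211%) for SOX2 regions in both libraries. A summit up to 3 kb past the 3′ end of any coding gene was found at 32 of the 68 regions (47.1%), 52 of the 132 (39.4%) and 69 of the 2369 (2.91%). These counts use the 17274 coding genes whose strand the promoter table gives, and clustered histone genes, which are short and close together, enter them.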
